A study of Homo sapiens with 11 samples.

Results

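The 6 mature miRNAs described here are those made from the miR-10 and miR-196 hairpins of the HOX clusters: hsa-miR-10a-5p, hsa-miR-10a-3p, hsa-miR-10b-5p, hsa-miR-10b-3p, hsa-miR-196a-5p and hsa-miR-196b-5p. They were chosen by name and location, and all 6 are among the 2576 miRNAs listed in the count tables. Small RNA was sequenced from SH-SY5Y, a subline of a human neuroblastoma line, in cells that had all been differentiated with all-trans retinoic acid (ATRA) for 7 days. In the co-treatment experiment, 3 libraries came from cells given 10 µM hydrogen peroxide (H2O2) over the same 7 days as ATRA and 3 from control cells without H2O2. In the pre-treatment experiment, 3 libraries came from cells given 10 µM H2O2 for 72 h, which was taken away before ATRA was added, and 2 from control cells, since 1 outlying sample of the triplicates is not analysed here. As a model, SH-SY5Y is a single tumour line, and its cultures still hold some epithelial-like cells that do not respond to retinoic acid. In bulk RNA of this kind, a change in the share of a cell type and a change in RNA per cell cannot be told apart.

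The HOX genes encode transcription factors that give cells their position along the body axis, and they lie in clusters in which retinoic acid switches genes on in order. The miR-10 hairpins lie beside the HOX4 genes and the miR-196 hairpins lie near the HOX9 genes, so these miRNAs are transcribed within the same clusters, and miR-10 is known to be induced by retinoic acid in neuroblastoma cells. A mature miRNA finds its target mRNAs mainly through its seed, bases 2 to 8, and each hairpin can give a 5p and a 3p arm. HOX mRNAs are themselves among the known targets of both families. miR-10b guides repression of HOXD10, and miR-196 pairs with HOXB8 mRNA so closely that the mRNA is cut.

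The mature sequences below are from RefSeq on GRCh38.p14. They are shown because the seed sets which members can share targets and because members with near-identical sequences could share reads. Such sharing of reads was not tested. The seed is in capitals. A mature sequence was matched for 5 of the 6 members, all but hsa-miR-10b-5p, so its likeness to hsa-miR-10a-5p is not shown here.
hsa-miR-10a-5p: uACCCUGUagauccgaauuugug
hsa-miR-10a-3p: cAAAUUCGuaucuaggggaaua
hsa-miR-10b-3p: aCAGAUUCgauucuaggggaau
hsa-miR-196a-5p: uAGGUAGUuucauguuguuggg
hsa-miR-196b-5p: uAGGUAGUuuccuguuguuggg

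hsa-miR-196a-5p and hsa-miR-196b-5p have the same seed, which no other of 2370 mature human sequences in the table carries at bases 2 to 8, and they differ by 1 substitution, A12C, counted from the 5′ end with the base of hsa-miR-196a-5p first. The 7 letters of that seed also lie from base 3 in 8 of 9 let-7 relatives, 1 base further along than in miR-196, and in 14 of the 2370 sequences (0.591%) in all. hsa-miR-10a-5p shares a run of 10 letters with hsa-miR-99a-5p and of 11 with hsa-miR-100-5p, the miRNAs of the related miR-99/100 family, but from base 7 against base 6, so the seeds of the families differ. The 3p arms of miR-10a and miR-10b have different seeds and share a run of 11 letters behind them. For comparison, the relatives read as follows, with the seed again in capitals.
hsa-miR-99a-5p: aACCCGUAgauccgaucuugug
hsa-miR-100-5p: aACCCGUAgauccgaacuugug
hsa-let-7a-5p: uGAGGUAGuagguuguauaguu

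The mature hsa-miR-10a-5p lies at chr17:48579904-48579926 and hsa-miR-10a-3p at chr17:48579864-48579885, both on the minus strand, inside HOXB3 and between HOXB4 and HOXB5. hsa-miR-10b-3p lies at chr2:176150368-176150389 on the plus strand. Its hairpin, MIR10B, lies in an intron of HOXD3, 1138 bases before HOXD4. hsa-miR-196a-5p has 2 sources. The copy in MIR196A2 lies at chr12:53991762-53991783 on the plus strand, in an intron of HOXC6, 3048 bases before HOXC9. The copy in MIR196A1 lies at chr17:48632532-48632553 on the minus strand, in an intron of HOXB7. hsa-miR-196b-5p lies at chr7:27169528-27169549 on the minus strand, within HOXA9, where the annotation gives an intron in some transcripts and an exon in others. These mature positions are on GRCh38.p14, and the host genes and distances of miR-10b and miR-196 come from an annotation of GRCh37, the build of the counts.

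The 11 libraries held 5343953 to 8927582 counts (median 7425640), so 3 counts correspond to 0.336 to 0.561 CPM (counts scaled to a common library total), a limit that covers counting error only. Levels below are CPM scaled with TMM factors over all 11 libraries. The mature members with a sequence are 22 or 23 bases long, and no length correction was made. How well each sequence is captured in a library was not corrected for either, so levels of different members compare reads only. The pre-treatment controls stood apart from each other. Markers of white blood cells, 5 miRNAs, summed to 119 CPM in replicate 1 and 13.9 CPM in replicate 2, against 9.70 to 22.2 CPM in the other 9 libraries, and 6 epithelial markers to 185 and 43.7 CPM, against 42.2 to 54.1 CPM. Most of the epithelial sum in replicate 1 was hsa-miR-205-5p, at 142 CPM against 4.74 CPM in replicate 2. The list did not rise as one. hsa-miR-200a-3p and hsa-miR-200b-3p were lower in replicate 1 (3.11 and 2.12 against 5.92 and 5.18 CPM). hsa-miR-200c-3p, hsa-miR-141-3p and hsa-miR-429 were higher (25.15, 11.16 and 1.55 against 19.4, 6.96 and 1.48 CPM). Of the neuronal markers, hsa-miR-124-3p, the most neuron-specific of them, had 0 to 7 counts per library, and the list of 5 summed to 3544 to 6955 CPM, mainly hsa-miR-375 and hsa-miR-128-3p. The part of any such difference in the results below was not tested.

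The levels of the members spanned a wide range. hsa-miR-10b-5p took up almost all of the members' reads, with a mean of 107288 CPM over the 11 libraries, the second highest of all miRNAs after hsa-miR-93-5p (115820 CPM). It ranked 1st in the 3 co-treatment controls and in pre-treatment control 2, 2nd in all 6 H2O2 libraries and 4th in pre-treatment control 1. hsa-miR-10b-3p, the other arm of the same hairpin, had a mean of 4690 CPM and ranked 32nd to 42nd. hsa-miR-10a-5p had a mean of 24.2 CPM and ranked 265th to 373rd. The ranges of these 3 over libraries did not overlap one another. hsa-miR-196a-5p came next, with 2 to 22 counts per library and a mean of 1.36 CPM. hsa-miR-10a-3p had 10 counts over all libraries, with 0 counts in 6 of the 11, and hsa-miR-196b-5p had 4 counts, of which 3 were in pre-treatment control 2 and 1 in pre-treatment H2O2 replicate 1. Both lay under the low-count filter and were not tested, and their ranges overlapped each other and that of hsa-miR-196a-5p. A count of 0 here allows a level up to the 3-count limit and does not show that the miRNA was absent. Together the 6 members made up 6.62% to 17.1% of all counts, with both ends of that range in the pre-treatment controls. In co-treatment they made up 11.9% to 12.9% of the control libraries and 9.14% to 10.4% of the H2O2 libraries.

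**Figure D1:**
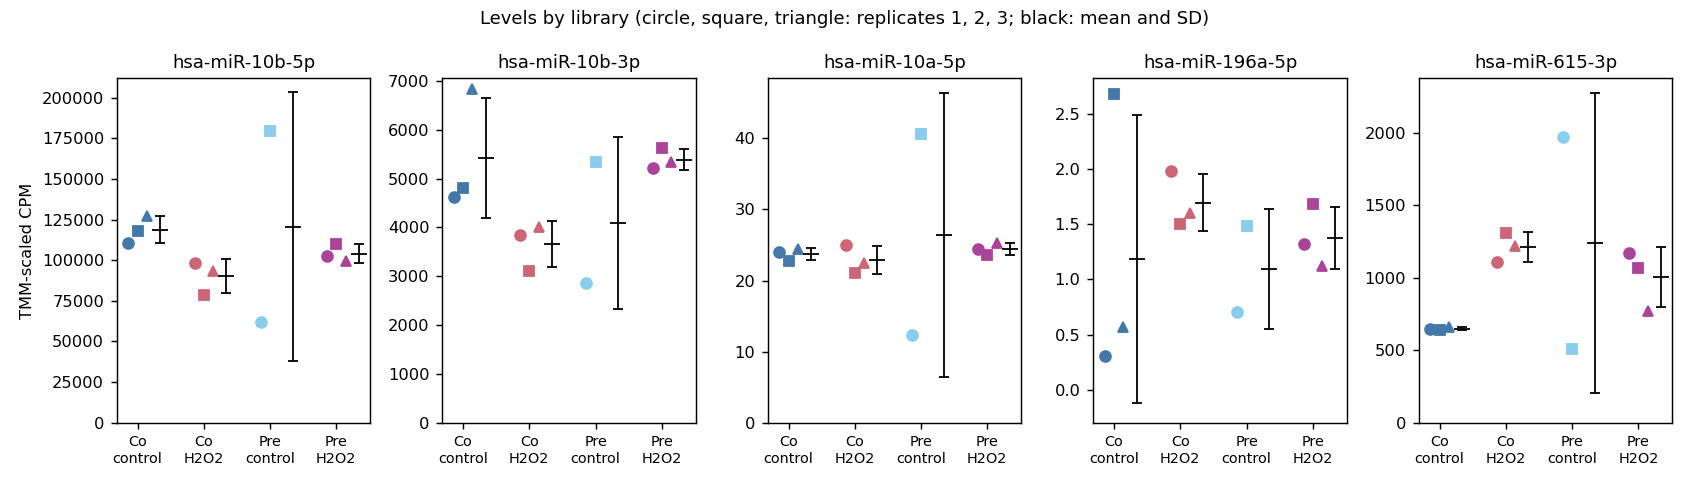
Level of hsa-miR-10b-5p, hsa-miR-10b-3p, hsa-miR-10a-5p, hsa-miR-196a-5p and, for comparison, hsa-miR-615-3p in each library (y axis, TMM-scaled CPM, linear and separate for each panel) by group (x axis), with circles, squares and triangles for replicates 1, 2 and 3 and the mean and SD in black. The 3 co-treatment H2O2 libraries lie below the 3 controls for both arms of miR-10b, and the 2 pre-treatment controls lie on either side of the H2O2 libraries for hsa-miR-10b-5p and hsa-miR-10a-5p.

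The co-treatment comparison asked whether H2O2 present during differentiation changed these miRNAs. Both arms of miR-10b were lower in every H2O2 library than in every control, by 0.42 and 0.58 on the log2 scale, but neither passed the test, and hsa-miR-10a-5p and hsa-miR-196a-5p overlapped between the groups. None of the 4 members tested was called at an FDR (Benjamini-Hochberg adjusted p of edgeR's exact test) under 0.05 with a log2 fold change (log2FC) beyond 0.6 in size, against 207 of all 790 miRNAs tested (26.2%). By direction, 10.6% of all those tested were called up-regulated and 15.6% down-regulated. The groups did not overlap for 2 of the 4 members, against 41.4% of all miRNAs tested, so the lack of overlap does not set these members apart. The median log2FC of the 4 members was -0.25, and that of all miRNAs tested was -0.04.

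hsa-miR-10b-5p, known for repressing HOXD10 in invasive tumour cells, stood at 110769, 117971 and 127411 CPM in co-treatment controls 1 to 3. It stood at 98572, 78578 and 93228 CPM in H2O2 replicates 1 to 3. All 3 H2O2 libraries were below all 3 controls, with group means of 90126 ± 10352 and 118717 ± 8346 CPM (SD, n = 3 each). The log2FC was -0.42 (SE 0.183, 95% interval -0.81 to -0.04, both from edgeR's quasi-likelihood fit), with an FDR of 0.195 in the exact test and 0.0966 in the quasi-likelihood test. The quasi-likelihood interval lies below 0 before adjustment over all miRNAs, whereas the exact test, which decides the calls, gave an unadjusted p of 0.0969. Leaving out H2O2 replicate 2, the lowest library, brought the log2FC to -0.24.

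hsa-miR-10b-3p, the arm that is usually the less abundant product of the hairpin, stood at 4615, 4815 and 6827 CPM in co-treatment controls 1 to 3. It stood at 3854, 3114 and 4015 CPM in the H2O2 libraries. Again all H2O2 libraries were below all controls, with control replicate 3 standing highest. The log2FC was -0.58 (SE 0.234, 95% interval -1.08 to -0.09), with an FDR of 0.0926 in edgeR's exact test and 0.0732 in the quasi-likelihood test. The log2FC was -0.34 without control replicate 3 and -0.39 without H2O2 replicate 2. Among 363 miRNAs with a mature sequence and a mean of at least 10 CPM it was -0.41, and it became 0.02 (FDR 0.964, edgeR's quasi-likelihood test) when each library's trend on the GC content of the mature sequence was removed, so its sign changed with that trend. hsa-miR-10b-5p was not in that fit.

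hsa-miR-10a-5p, the paralogue made beside HOXB4, stood at 24.0, 22.8 and 24.4 CPM in co-treatment controls 1 to 3 (156, 187 and 173 counts). It stood at 25.1, 21.1 and 22.5 CPM in the H2O2 libraries (227, 126 and 169 counts). The groups overlapped, and the H2O2 libraries held both the highest and the lowest value. The log2FC was -0.08 (SE 0.263, 95% interval -0.63 to 0.47) with an FDR of 0.875 in edgeR's exact test. Its sign changed under other scalings, to 0.11 with a filter that asked for the minimum CPM in every library, an alternative that moved the median of all miRNAs by 0.186. Under the same filter the log2FC of hsa-miR-10b-5p was -0.23 and that of hsa-miR-10b-3p was -0.38.

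hsa-miR-196a-5p had 2, 22 and 4 counts in co-treatment controls 1 to 3 and 18, 9 and 12 counts in the H2O2 libraries. The control with 22 counts stood above all 3 H2O2 libraries and the other controls stood below them. The log2FC was 0.42 (SE 0.663, 95% interval -0.98 to 1.81) with an FDR of 0.679 in edgeR's exact test, and the interval spans changes of either sign. Without control replicate 2 the log2FC was 1.94 and the FDR 0.0169, and that call rests on leaving out 1 library.

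The pre-treatment comparison asked whether H2O2 given before differentiation left a change after its removal. No member was called, and the 2 controls stood so far apart that the direction for hsa-miR-10b-5p and hsa-miR-10a-5p depended on which control was used. None of the 4 members tested was called, against 133 of all 868 miRNAs tested (15.3%), and the groups overlapped for all 4, whereas 47.6% of all miRNAs tested had groups that did not overlap. The median log2FC of the 4 members was 0.05, and that of all miRNAs tested was -0.19.

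hsa-miR-10b-5p stood at 62014 CPM in pre-treatment control 1 and 179295 CPM in control 2, a ratio of 2.89 that is also its whole range over the 11 libraries. It stood at 102821, 110280 and 99228 CPM in H2O2 replicates 1 to 3. The H2O2 libraries lay close together and between the controls. The log2FC was -0.28 (SE 0.454, 95% interval -1.35 to 0.79) with an FDR of 0.735 in edgeR's exact test. Without control 1 it was -0.84 (FDR 2.28e-05) and without control 2 it was 0.74 (FDR 0.000985), each with a lone control assumed to vary like the H2O2 libraries.

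hsa-miR-10a-5p followed the same pattern, with 12.3 CPM in control 1, 40.6 CPM in control 2 and 24.5, 23.5 and 25.3 CPM in the H2O2 libraries. Here too the controls lay on either side of all 3 H2O2 libraries. The log2FC was -0.18 (SE 0.519, 95% interval -1.41 to 1.04) with an FDR of 0.856 in edgeR's exact test. It was -0.78 (FDR 0.00425) without control 1 and 0.98 (FDR 0.00235) without control 2.

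hsa-miR-10b-3p stood at 2852 CPM in control 1, 5331 CPM in control 2 and 5208, 5617 and 5341 CPM in the H2O2 libraries. Control 2 fell among the H2O2 libraries and control 1 lay below them. The log2FC was 0.34 (SE 0.339, 95% interval -0.46 to 1.14) with an FDR of 0.64 in edgeR's exact test. It was -0.04 (FDR 0.906) without control 1 and 0.91 (FDR 0.000105) without control 2. Removing the trend on GC content took it from 0.18 to -0.01.

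hsa-miR-196a-5p again gave few reads in pre-treatment, namely 5 and 10 counts in the controls and 11, 12 and 8 counts after H2O2, so the groups overlapped. The log2FC was 0.28 (SE 0.645, 95% interval -1.24 to 1.80) with an FDR of 0.848 in edgeR's exact test. It was -0.16 without control 1.

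**Figure D2:**
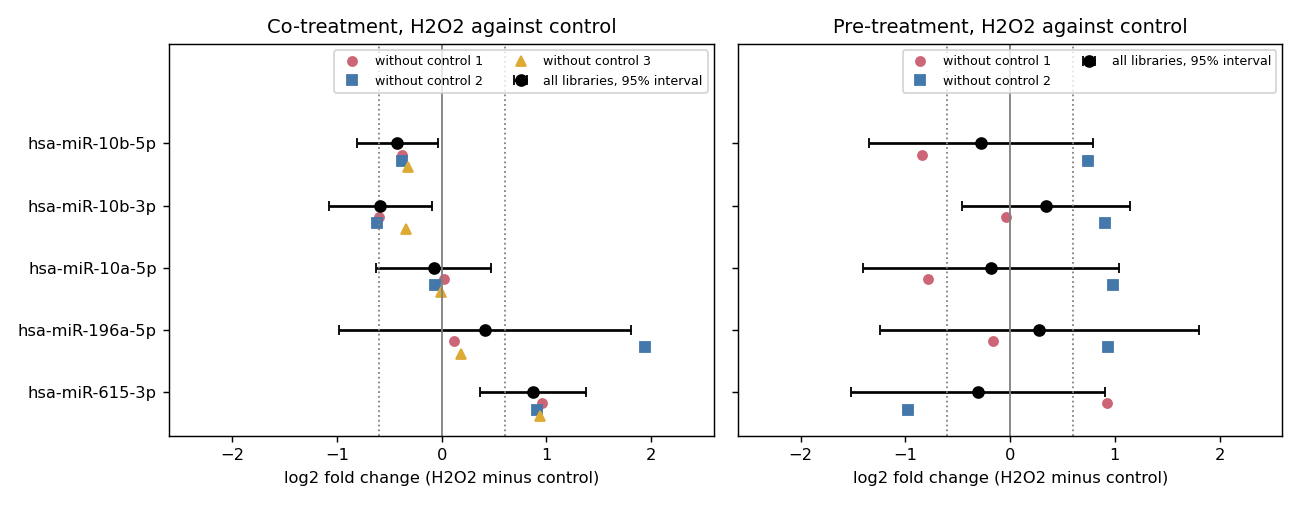
log2FC of H2O2 against control (x axis) for 4 members and hsa-miR-615-3p in co-treatment (left) and pre-treatment (right), with all libraries in black (bars are 95% intervals of edgeR's quasi-likelihood fit) and with each control left out in colour. Dotted lines mark log2FC of -0.6 and 0.6. In pre-treatment the value of hsa-miR-10b-5p runs from -0.84 without control 1 to 0.74 without control 2, whereas in co-treatment both arms of miR-10b stay below 0 whichever control is left out.

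The responses of the 2 experiments were then compared in a joint fit over the 11 libraries. A batch that differs between the experiments cannot be told apart from the experiment itself. None of the 4 members tested had a called difference in response, against 27.3% of 945 miRNAs tested. For hsa-miR-10b-3p the log2FC of pre-treatment was 0.96 above that of co-treatment (SE 0.393, 95% interval 0.13 to 1.80), with an FDR of 0.0824 in edgeR's quasi-likelihood test. The difference was 1.495 without pre-treatment control 2, which leaves 1 control, and at its lowest 0.37, so it stayed above 0 whichever library was left out. With the trend on GC content removed in each experiment, the log2FC of hsa-miR-10b-3p was 0.02 in co-treatment and -0.01 in pre-treatment. The responses then no longer stood apart, and the joint fit was not run without that trend. For hsa-miR-10b-5p the difference was 0.18 (SE 0.43, FDR 0.775), for hsa-miR-10a-5p it was -0.06 (SE 0.529, FDR 0.936) and for hsa-miR-196a-5p it was -0.15 (SE 1.02, FDR 0.923). These intervals are wide, and for hsa-miR-10b-5p the interval ran from -0.73 to 1.10.

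In the same fit no difference between the controls of pre-treatment and co-treatment was called for any of the 4 members, against 24.4% of the 945 miRNAs that were called. The difference, pre-treatment minus co-treatment, was 0.02 (SE 0.32, FDR 0.959) for hsa-miR-10b-5p, -0.41 (SE 0.294, FDR 0.331) for hsa-miR-10b-3p, 0.15 (SE 0.393, FDR 0.805) for hsa-miR-10a-5p and -0.16 (SE 0.769, FDR 0.892) for hsa-miR-196a-5p in edgeR's quasi-likelihood test. For hsa-miR-10b-5p this mean hid the opposite positions of the pre-treatment controls, with a difference of 0.76 (FDR 0.0183) without control 1 and -0.95 (FDR 0.00217) without control 2. hsa-miR-10a-5p did the same, with 0.94 (FDR 0.0342) and -0.96 (FDR 0.0248).

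Over all 4 groups, the means of hsa-miR-10b-5p ran from pre-treatment control (120654 CPM, n = 2) through co-treatment control (118717 CPM) and pre-treatment H2O2 (104110 ± 5638 CPM) to co-treatment H2O2 (90126 CPM). The first 2 did not differ beyond their spread. The libraries of each later group lay below those of the group before, by a narrow margin between 110769 and 110280 CPM and between 99228 and 98572 CPM, and these steps across experiments were not tested. hsa-miR-10b-3p ran from co-treatment control (5419 ± 1223 CPM) through pre-treatment H2O2 (5388 ± 208 CPM) and pre-treatment control (4092 CPM) to co-treatment H2O2 (3661 ± 480 CPM), and each neighbour overlapped the next. hsa-miR-10a-5p ran from 26.4 CPM in pre-treatment control through 24.5 ± 0.886 CPM in pre-treatment H2O2 and 23.8 ± 0.848 CPM in co-treatment control to 22.9 ± 2.02 CPM in co-treatment H2O2, with every neighbour overlapping the next. hsa-miR-196a-5p ran from 1.70 ± 0.256 CPM in co-treatment H2O2 through 1.38 ± 0.282 in pre-treatment H2O2 and 1.19 ± 1.30 in co-treatment control to 1.09 in pre-treatment control, again with overlap at each step.

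Ratios of members within a library need no scaling between libraries. hsa-miR-10a-5p made up 2.26 of every 10000 reads of hsa-miR-10a-5p and hsa-miR-10b-5p over all libraries, and 1.92 to 2.68 in single libraries. That is a 1.4-fold range, whereas the CPM by library size of hsa-miR-10b-5p had a 2.63-fold range and that of hsa-miR-10a-5p a 3-fold range. The 95% Wilson interval held the pooled value in 9 of the 11 libraries, the exceptions being co-treatment controls 2 and 3, which lay below it. The ends of both CPM ranges came from the 2 pre-treatment controls, where the share was 1.98 and 2.26. In the other libraries CPM by library size ran from 87938 to 124165 for hsa-miR-10b-5p and from 22.2 to 26.95 for hsa-miR-10a-5p. The share had its whole range there, so in those libraries it was not steadier than the levels. Whether reads of one paralogue were counted as the other was not tested. The share was 2.17, 1.93 and 1.92 in co-treatment controls and 2.54, 2.68 and 2.41 in co-treatment H2O2 libraries, all of which lay above the controls. The mean log2 ratio was 0.34 higher with H2O2 (exact permutation test over libraries, two-sided, p = 0.1, Benjamini-Hochberg adjusted over 6 ratio tests 0.3), and 0.1 is the smallest p that this design allows. In pre-treatment the share was 1.98 and 2.26 in controls and 2.38, 2.13 and 2.55 in H2O2 libraries, which overlapped, with a difference of 0.15 (exact permutation test, p = 0.4, adjusted 0.4).

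The 3p arm made up 4.2% of the reads of both arms for miR-10b (379073 of 9028704 counts, 95% Clopper-Pearson interval 4.19% to 4.21%). For miR-10a it made up 0.51% (10 of 1961 counts, interval 0.245% to 0.936%), so the intervals, which cover counting error only, did not overlap. In co-treatment there were 24.0, 24.5 and 18.7 reads of hsa-miR-10b-5p for each of hsa-miR-10b-3p in controls and 25.6, 25.2 and 23.2 in H2O2 libraries, with a difference in mean log2 ratio of 0.15 (exact permutation test, p = 0.4, adjusted 0.4). In pre-treatment there were 21.7 and 33.6 in controls and 19.7, 19.6 and 18.6 in H2O2 libraries. There all H2O2 libraries lay below both controls, with a difference of -0.49 (exact permutation test, p = 0.1, the smallest this design allows, adjusted 0.3). That difference was -0.80 without control 1 and -0.17 without control 2. The ratio of the arms of miR-10a rested on 0 to 4 counts of the 3p arm and differed by -0.96 in co-treatment (exact permutation test, p = 0.2, adjusted 0.4) and by -1.34 in pre-treatment (exact permutation test, p = 0.4, adjusted 0.4).

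**Figure D3:**
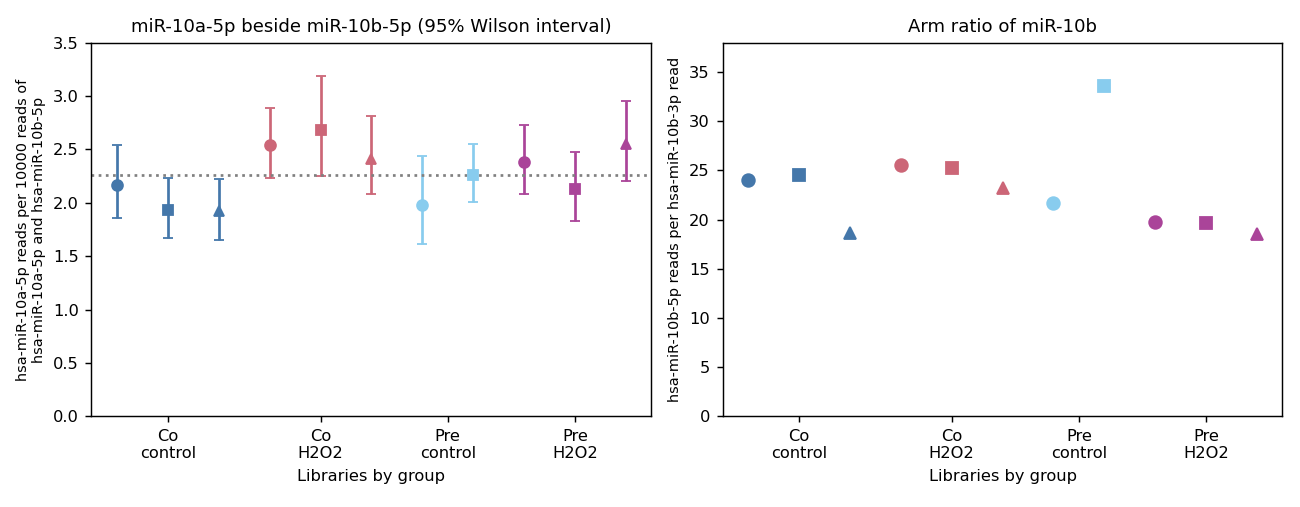
Left, reads of hsa-miR-10a-5p per 10000 reads of hsa-miR-10a-5p and hsa-miR-10b-5p (y axis) in each library by group (x axis), with 95% Wilson intervals and the pooled value of 2.26 dotted. Right, reads of hsa-miR-10b-5p for each read of hsa-miR-10b-3p (y axis) by library. The share of hsa-miR-10a-5p stays between 1.92 and 2.68, and the arm ratio of miR-10b is highest in pre-treatment control 2 at 33.6.

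The miRNAs whose pattern over the 11 libraries was most like that of each member were found among 403 others with a mean of at least 10 CPM, by the root mean square (RMS) difference of log2 CPM after each miRNA was centred on its own mean. For hsa-miR-10b-5p the nearest was hsa-miR-10a-5p (RMS difference 0.159), then hsa-miR-99a-5p (0.194) and hsa-miR-379-5p (0.201), against a median of 0.611 over all those compared. For hsa-miR-10a-5p the nearest was hsa-miR-10b-5p (0.159), then hsa-miR-99a-5p (0.161) and hsa-miR-2355-3p (0.194), against a median of 0.627. The other arm of the hairpin was less close, since hsa-miR-10b-3p was nearest to hsa-miR-148b-5p (0.142), hsa-miR-27b-3p (0.164) and hsa-miR-7-5p (0.172), and stood at 0.242 from hsa-miR-10b-5p. Pre-treatment controls 1 and 2 held the lowest and highest levels of hsa-miR-10b-5p, hsa-miR-10a-5p and hsa-miR-99a-5p (1713 and 6201 CPM for the last). The distances among these miRNAs therefore rest much on those 2 libraries. All the distances share the libraries and their scaling and describe likeness only.

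Of 6 other miRNAs of the HOX clusters, 1 was abundant enough to be tested. hsa-miR-615-3p lies in an intron shared by HOXC5 and HOXC4, at chr12:54034010-54034031 on the plus strand of GRCh38.p14, and has the sequence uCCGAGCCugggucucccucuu, again with the seed in capitals. It stood at 644, 641 and 661 CPM in co-treatment controls and at 1107, 1310 and 1215 CPM in H2O2 libraries. All H2O2 libraries were above all controls, unlike either arm of miR-10b. It was up-regulated in co-treatment, with a log2FC of 0.87 (SE 0.242, 95% interval 0.36 to 1.38) and an FDR of 0.00803 in edgeR's exact test. The call was lost without H2O2 replicate 3 (0.90, FDR 0.0523), in 1 fit of all 11 libraries (0.90, FDR 0.12) and when the trend on GC content was removed, which took it from 1.04 to 0.37 (FDR 0.23). Its mature sequence has a GC content of 63.6%, and those of hsa-miR-10a-5p and hsa-miR-10b-3p have 43.5% and 40.9%. In pre-treatment it stood at 1968 and 508 CPM in controls 1 and 2 and at 1172, 1066 and 772 CPM in H2O2 libraries, with the controls again on either side but in the order opposite to that of miR-10b. Its log2FC there was -0.31 (SE 0.514, FDR 0.741). It was 0.93 (FDR 0.00383) without control 1 and -0.98 (FDR 0.000115) without control 2. The difference in response was -1.20 (SE 0.535, 95% interval -2.34 to -0.07, FDR 0.107, edgeR's quasi-likelihood test). The 5p arm of miR-615, both 3p arms of miR-196, hsa-miR-3185 and hsa-miR-7704 had 0 to 4 counts in every library.

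Of the 3 miR-99/100 relatives, 1 was up-regulated in co-treatment (median log2FC 0.24), where 26.2% of all miRNAs tested were called. The same miRNA was down-regulated in pre-treatment (median -0.39), where 15.3% were called. This was hsa-miR-99b-5p, made from a hairpin next to those of let-7e and miR-125a. It had 13610, 18202 and 15924 CPM in co-treatment controls and 30426, 20766 and 29972 CPM in H2O2 libraries (log2FC 0.73, SE 0.225, FDR 0.0354). In pre-treatment it had 55428 and 36422 CPM in controls and 20512, 19626 and 17095 CPM in H2O2 libraries (log2FC -1.30, SE 0.266, FDR 0.00491). The groups did not overlap in either experiment, and the difference in response was -2.03 (SE 0.351, FDR 0.00211, edgeR's quasi-likelihood test). The controls of the 2 experiments differed too, with pre-treatment 1.53 above co-treatment (SE 0.259, FDR 0.00179, same test). The co-treatment call was lost without control 1 (0.73, FDR 0.107), without H2O2 replicate 1 (0.67, FDR 0.151), without H2O2 replicate 3 (0.69, FDR 0.145) and when the trend on GC content was removed (0.25, FDR 0.433). It was also lost with no low-count filter (FDR 0.0574), with the replicate block (FDR 0.0906) and in 1 fit of all 11 libraries (FDR 0.0516), so it held under 10 of 17 alternatives. The pre-treatment call was lost without any 1 of the H2O2 replicates, at -1.32 to -1.20 (FDR 0.136 to 0.154), in the quasi-likelihood test (FDR 0.052), with no low-count filter (FDR 0.053) and with the replicate block (-1.19, FDR 0.363), and held under 10 of 16. hsa-miR-99a-5p, the relative nearest in pattern to the miR-10 5p arms, was not called, with log2FC of -0.27 (FDR 0.485) in co-treatment and -0.39 (FDR 0.675) in pre-treatment.

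None of the 9 let-7 relatives, which hold down growth genes in differentiated cells, was called in co-treatment (median log2FC -0.01) or in pre-treatment (median -0.29). The shares over all miRNAs tested were 26.2% and 15.3%, in that order. Whether so short a list departs from these shares was not tested. Of 14 miRNAs linked to retinoic acid or neuronal differentiation, 13 were tested in each experiment. In co-treatment 1 was up-regulated and 2 were down-regulated (median -0.15), and in pre-treatment none was called (median 0.45). The co-treatment calls are near the share over all miRNAs and do not set this list apart. Whether its lack of pre-treatment calls departs from the 15.3% was not tested. The one up-regulated was hsa-miR-103a-3p (0.89, SE 0.303, FDR 0.0248). The down-regulated ones were hsa-miR-218-5p, a motor neuron miRNA (-0.99, SE 0.288, FDR 0.00803), and hsa-miR-9-5p, a miRNA of neural progenitors (-1.06, SE 0.403, FDR 0.0493). The call of hsa-miR-9-5p held under 1 of 15 alternatives, and that of hsa-miR-218-5p was lost when the trend on GC content was removed (-0.27, FDR 0.433). That of hsa-miR-218-5p was also lost without control 1, control 3, H2O2 replicate 2 or H2O2 replicate 3 (FDR 0.0824, 0.104, 0.0679 and 0.0549), and that of hsa-miR-103a-3p without control 1, control 3, H2O2 replicate 1 or H2O2 replicate 3 (FDR 0.0919, 0.0755, 0.0517 and 0.068). Both were lost in 1 fit of all 11 libraries (FDR 0.0827 and 0.0749), so the first held under 11 and the second under 12 of 17 alternatives.

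Marker lists of other cell types moved beside these results in both experiments. The counts of calls in these short lists stand against 26.2% of all miRNAs tested in co-treatment and 15.3% in pre-treatment. In co-treatment the 8 mesenchymal markers summed to 15478 to 16806 CPM in controls and 10178 to 13241 CPM in H2O2 libraries, so this sum was lower with H2O2 in every library, as both arms of miR-10b were. Most of the sum was hsa-miR-143-3p, at 12047 to 14686 CPM in controls and 8135 to 9574 CPM with H2O2, which was not called (log2FC -0.60, FDR 0.0702). The list did not move as one, since of its 6 tested members hsa-miR-221-3p was up-regulated (2.94, FDR 7.31e-06), hsa-miR-199a-5p was down-regulated (-1.86, FDR 0.00136) and hsa-miR-214-3p stood at 0.13 (FDR 0.83), and hsa-miR-31-5p was at 0 in all 6 libraries. The epithelial sum was 49.6 to 54.1 CPM in controls and 42.2 to 45.3 CPM with H2O2, with none of 6 tested members called, and the white blood cell sum was 18.1 to 22.2 CPM and 9.70 to 17.3 CPM, with 1 of 4 down-regulated. The neuronal sum overlapped, at 4066 to 4783 CPM in controls and 4179 to 4817 CPM with H2O2, with 2 of 4 down-regulated, and the red blood cell sum overlapped, at 4.27 to 7.09 and 5.85 to 9.99 CPM, with 1 of 3 up-regulated. In pre-treatment, hsa-miR-223-3p of the white blood cell list had 540 counts in control 1, the control with low miR-10b, and 4 in control 2, and hsa-miR-205-5p of the epithelial list had 1007 and 32 counts. Both were down-regulated (log2FC -4.87, SE 1.42, FDR 0.0107, and log2FC -4.54, SE 1.15, FDR 0.00271), each the 1 call of its list (4 and 6 tested), and without control 1 they came to 1.04 (FDR 0.52) and -0.66 (FDR 0.344). The mesenchymal sum was 10318 CPM in control 1, 19320 CPM in control 2 and 13964 to 16016 CPM with H2O2, the same order of libraries as for hsa-miR-10b-5p, again mostly hsa-miR-143-3p (6245, 17113 and 12796 to 14262 CPM), with 1 of 7 down-regulated. The neuronal sum was 3978 CPM in control 1, 6955 CPM in control 2 and 3544 to 3781 CPM with H2O2, with 1 of 4 down-regulated. The red blood cell sum was 2.12 CPM in control 1, 3.703 CPM in control 2 and 10.5 to 15.0 CPM with H2O2, with 2 of 3 up-regulated. Neither of these sums had the order of libraries of hsa-miR-10b-5p. The part of these cell type markers in the miR-10 results was not tested.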

How the data were processed

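The members and the comparison lists were chosen with earlier results of these data known. The authors trimmed QIAseq small RNA reads with Cutadapt 2.10, used Bowtie2 2.4.1 for alignment to hg19, counted mature miRNAs with HTSeq 0.7.2 and deposited the read counts unnormalised. Use of molecular identifiers, the miRBase release and the handling of reads that fit several miRNAs are not given in the sources used here. The authors' own fold changes and p-values were deposited too and were not used.

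Groups came from the sample labels. Each experiment's H2O2 libraries were tested against its controls by the exact test of edgeR 4.0.16 (R 4.3.3) with TMM scaling, on miRNAs whose CPM exceeded what 5 counts give in the smallest library, in at least 3 (co-treatment) or 2 (pre-treatment) libraries. SEs, intervals, the difference in response and the contrast of controls came from edgeR's quasi-likelihood fit, the last pair over 11 libraries with the filter in at least 2. Ratios used a pseudocount of 0.5 and an exact permutation test. DESeq2 1.42.0, other scalings and filters, a replicate block, a lowess trend on GC content and each library left out were the alternatives. The tests were tested on simulated data. Named miRNAs were the members, 6 other HOX cluster miRNAs, at most the 2 largest rises and falls among calls of each list, and the 3 nearest patterns. hsa-miR-99a-5p, hsa-miR-223-3p, hsa-miR-205-5p, hsa-miR-124-3p, hsa-miR-128-3p, hsa-miR-31-5p, hsa-miR-375 and the other cell type markers given by name were named after their values were seen. Totals were 5343953 to 8927582 counts per library, which sets the 3-count limit at 0.336 to 0.561 CPM. Intervals cover counting error only where they rest on reads.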

Additional observations from a re-analysis of the deposited data

Results flagged for a closer look

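No member had a called difference in response between the experiments. Among the relatives and the comparison lists, 14 miRNAs had one, given as the log2FC of pre-treatment minus that of co-treatment in edgeR's quasi-likelihood fit of 11 libraries. Of all 945 miRNAs tested, 27.3% had one, so such calls do not set these lists apart. The difference was -2.03 for hsa-miR-99b-5p (FDR 0.00211), -1.35 for hsa-let-7b-5p (FDR 0.0119), -1.08 for hsa-let-7e-5p (FDR 0.0318) and 1.22 for hsa-miR-98-5p (FDR 0.0406). It was 2.09 for hsa-miR-9-3p (FDR 0.0196) and 1.28 for hsa-miR-152-3p (FDR 0.018). It was -6.71 for hsa-miR-223-3p (FDR 0.007) and -5.03 for hsa-miR-205-5p (FDR 0.00879), both of which were high in pre-treatment control 1 and were no longer called without it (-0.93 with FDR 0.663, and -1.24 with FDR 0.268). Among the other cell type markers it was 2.23 for hsa-miR-451a (FDR 0.0344), 3.25 for hsa-miR-144-5p (FDR 0.0158) and -3.00 for hsa-miR-486-5p (FDR 0.0368) of red blood cells. It was 1.905 for hsa-miR-200a-3p (FDR 0.0316) of epithelium, -2.12 for hsa-miR-221-3p (FDR 0.0475) of mesenchyme and -1.365 for hsa-miR-375 (FDR 0.0227) of the neuronal list. The call of hsa-miR-99b-5p held under all 14 alternatives for this test, that of hsa-let-7b-5p under 13, hsa-miR-9-3p under 12, hsa-miR-152-3p under 11, hsa-let-7e-5p under 6 and hsa-miR-98-5p under 4. Of the 6 other markers, that of hsa-miR-144-5p held under 13, hsa-miR-375 under 8, hsa-miR-486-5p under 7, hsa-miR-451a and hsa-miR-200a-3p under 6 and hsa-miR-221-3p under 4. Of the 11 libraries left out in turn, 9 ended the call of hsa-miR-98-5p, 8 that of hsa-miR-221-3p, 7 each those of hsa-let-7e-5p, hsa-miR-451a and hsa-miR-200a-3p, 6 that of hsa-miR-486-5p and 5 that of hsa-miR-375. Without pre-treatment control 1, hsa-miR-9-3p came to 1.24 (FDR 0.098), hsa-miR-152-3p to 0.83 (FDR 0.0912), hsa-miR-98-5p to 0.78 (FDR 0.23), hsa-miR-144-5p to 2.20 (FDR 0.0539) and hsa-miR-221-3p to -1.35 (FDR 0.23). Without co-treatment H2O2 replicate 2, hsa-miR-98-5p came to 0.81 (FDR 0.137). Without pre-treatment control 2, hsa-miR-375 came to -0.77 (FDR 0.0761). The groups of hsa-miR-429 of epithelium did not overlap in either experiment, lower with H2O2 in co-treatment and higher in pre-treatment, but the difference of 1.06 was not called (FDR 0.251). In the same fit some of the 14 also differed between the controls, as did 24.4% of all miRNAs tested. Pre-treatment minus co-treatment was 1.53 for hsa-miR-99b-5p (FDR 0.00179) and 2.89 for hsa-miR-221-3p (FDR 0.00323). It was 5.85 for hsa-miR-223-3p (FDR 0.00273) and 5.26 for hsa-miR-205-5p (FDR 0.00179). No such difference was called for the rest. The pre-treatment response of each miRNA was measured against 2 controls that stood apart.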

How the results depend on the processing

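Of the members, none was called in either experiment under any alternative that kept all libraries. In co-treatment hsa-miR-10a-5p changed sign to 0.0064 with library size in place of TMM, 0.11 with the filter in every library, 0.36 with the GC trend removed and 0.093 in the same miRNAs with the trend kept. hsa-miR-10b-3p changed sign to 0.019 with the GC trend removed, and hsa-miR-615-3p lost its call there (0.37) and in 1 fit of 11 libraries (0.90). In pre-treatment, with the GC trend removed, hsa-miR-10b-3p came to -0.0080 and hsa-miR-615-3p to 0.22. Between the controls, hsa-miR-10b-5p came to -0.049 with library size. GC content was known for 88.8% and 87.9% of the miRNAs in those fits. The filter in every library moved the median of all miRNAs by 0.186 in co-treatment and -0.171 in pre-treatment, with 115 up-regulated and 87 down-regulated in co-treatment in place of 84 and 123. The cause of these changes was not tested.

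Over all miRNAs, 207 calls in co-treatment became 84 in 1 fit of 11 libraries and 98 to 279 with each library left out. In pre-treatment 133 became 17 in the quasi-likelihood test, 61 with no low-count filter and 9 to 449 with each library left out.

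Leaving out each library in turn gave, in co-treatment, -0.12 to 0.070 for hsa-miR-10a-5p, 0.11 to 1.94 for hsa-miR-196a-5p and 0.90 to 0.96 for hsa-miR-615-3p. In pre-treatment it gave -0.78 to 0.98 for hsa-miR-10a-5p, -0.84 to 0.74 for hsa-miR-10b-5p, -0.038 to 0.91 for hsa-miR-10b-3p, -0.16 to 0.94 for hsa-miR-196a-5p and -0.98 to 0.93 for hsa-miR-615-3p, and among the markers -5.88 to 1.04 for hsa-miR-223-3p. For the difference in response it gave -0.88 to 1.06 for hsa-miR-10a-5p, -0.59 to 1.16 for hsa-miR-10b-5p, 0.37 to 1.495 for hsa-miR-10b-3p, -1.58 to 0.49 for hsa-miR-196a-5p and -1.86 to -0.11 for hsa-miR-615-3p. Between the controls it gave -0.96 to 0.94 for hsa-miR-10a-5p, -0.95 to 0.76 for hsa-miR-10b-5p, -0.94 to 0.15 for hsa-miR-10b-3p, -0.80 to 1.27 for hsa-miR-196a-5p and -0.19 to 1.59 for hsa-miR-615-3p. In pre-treatment the ends came from leaving out 1 or the other control for hsa-miR-10a-5p, hsa-miR-10b-5p, hsa-miR-10b-3p, hsa-miR-196a-5p, hsa-miR-615-3p and hsa-miR-223-3p.

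Deviations of same-numbered libraries had correlations of 0.0408, -0.173 and -0.184 in co-treatment and of 0.245 and -0.0437 in pre-treatment. With groups of 3 or 2 libraries these values cannot show whether the libraries were paired. The 2 pre-treatment controls, centred on their own mean, are mirror images of each other. With the replicate block, co-treatment calls came to 111 and pre-treatment calls to 15, hsa-miR-10a-5p to 0.070 and hsa-miR-615-3p to 0.13 in pre-treatment, and the difference in response of hsa-miR-10a-5p to 0.15. With each library left out, the difference in log2 ratio of hsa-miR-10b-5p to hsa-miR-10b-3p ran from -0.80 to -0.17 in pre-treatment and, lowest without control 3, from 0.024 to 0.22 in co-treatment. That of hsa-miR-10a-5p to hsa-miR-10a-3p ran from -1.69 to -0.50 in co-treatment and -2.16 to -0.51 in pre-treatment, and that of hsa-miR-10a-5p to hsa-miR-10b-5p from 0.31 to 0.40 and 0.055 to 0.24. No sign changed, and a pseudocount of 1 moved none by more than the larger SD of the groups compared.

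At these depths hsa-miR-10a-3p and hsa-miR-196b-5p lie at the counting limit, and hsa-miR-196a-5p rests on 113 counts in all.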
